A study of Mus musculus with 8 samples.

Results

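The replication-dependent histone genes encode the linker histone H1 and the core histones H2A, H2B, H3 and H4 that package newly replicated DNA. They were followed by subtype and by genomic cluster in polyadenylated RNA from rib (costal) chondrocytes, the cartilage cells of the rib, of wild-type and Mir140-null mice. Members were selected on their TPM values (a relative transcript level, scaled for transcript length and to the same total of 1000000 in each library). A gene was kept if its symbol in GENCODE M21 began with Hist1h, Hist2h, Hist3h or Hist4, if it was annotated as protein-coding and if it reached 0.5 TPM in at least 4 of the 8 libraries. Of 67 such annotated genes, 55 passed. The same TPM rule kept 17177 of the 52325 gene identifiers in the files. By subtype, the members comprised 6 H1, 11 H2A, 15 H2B, 10 H3 and 13 H4 genes.

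All 8 libraries came from mice 7 days old, with C57BL/6J given as the strain background. In the 4 Mir140-null samples the *Mir140* locus had been deleted by CRISPR/Cas9 in zygotes, so the microRNA was lost in every cell and not in cartilage alone. The founders were mixed C57BL/6 and CBA/ca and were backcrossed onto C57BL/6J. Repeated crosses of heterozygotes then gave a wild-type and a null line, from which the 4 wild-type and the Mir140-null samples came. A difference between the lines cannot be told apart from one of genotype. Chondrocytes were released with collagenase, and poly(A)-selected stranded libraries were read as single-end 75-base reads. Neither genotype received any treatment. The labels do not say that each sample was a separate animal, so the p-values measure the spread between these samples, which may be technical.

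Replication-dependent histone mRNAs are made mainly during S phase, when the cell doubles its chromatin. They differ from other mRNAs at the 3′ end, which is normally cut just after a conserved stem-loop and carries no poly(A) tail, and the stem-loop binding protein Slbp then takes the place of the tail. Some of these genes also give longer, polyadenylated transcripts that run past the stem-loop, above all in cells that have left the cell cycle, and poly(A) selection retains such forms in preference to the tailless ones.

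The stem-loop is therefore shown for the genes in which it was found, because it sets these mRNAs apart from those of other genes and from what a poly(A) library is made to capture. It was searched for in the GENCODE M21 transcripts (GRCm38/mm10) as 16 bases after the stop codon that start with GG, end with CC, form 6 base pairs and hold a 4-base loop starting with TT. It was present in 44 of the 67 annotated genes, starting 21 to 58 bases after the stop codon (median 31). Of the 23 without a match, 15 have at most 2 annotated bases after the stop codon. Among other protein-coding genes with 100 bases after a stop codon, 8 of 20136 (0.0397%) held such a sequence, against 25 of the 31 histone genes with that much sequence. There were 6 distinct stem-loops, and 1 gene of each is given 5′ to 3′ on the sense strand, with the stem-loop in capitals and 5 flanking bases in lower case.
Hist1h1c (H1, chr13:23739512-23739527, + strand): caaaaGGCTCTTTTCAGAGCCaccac
Hist1h3e (H3, chr13:23561903-23561918, - strand): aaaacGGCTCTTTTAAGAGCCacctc
Hist2h2ac (H2A, chr3:96220418-96220433, - strand): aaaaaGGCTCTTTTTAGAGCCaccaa
Hist1h4n (H4, chr13:21831798-21831813, - strand): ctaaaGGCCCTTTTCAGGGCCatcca
Hist1h4i (H4, chr13:22040966-22040981, - strand): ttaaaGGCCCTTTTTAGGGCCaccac
Hist1h4j (H4, chr13:21735437-21735452, + strand): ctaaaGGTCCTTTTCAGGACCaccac

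All 11 H4 genes with a stem-loop began it with GGCCC or GGTCC, and all 33 genes of the other subtypes with GGCTC. The Hist1h1c form was the most widespread, in 3 H1, 10 H2A, 8 H2B and 5 H3 genes, whereas the Hist2h2ac form was found in that gene only among those searched.

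Promoters also differed between subtypes. RefSeq windows of 300 bases (GRCm38.p6, 250 bases before to 50 after the start) were matched for 62 of the 67 genes and searched on both strands. TATAAA was present in 35 of 62 histone windows (56.5%) and in 15.7% of all 27025 windows. CCAAT was present in every window of the 6 H1, 18 H2A, 16 H2B and 10 H3 genes, in 3 of 12 H4 windows, and in 41.1% of all windows. The letters AAACACA, the core of the H1 box, were found in 5 of 6 H1 windows (83.3%), against 8.22% of all. The octamer ATTTGCAT was found in 7 of 18 H2A windows (38.9%) and 7 of 16 H2B windows (43.8%), in 0 of the H1, H3 and H4 windows, and in 1.97% of all. None of these motifs contains another on either strand. Many H2A and H2B genes start next to each other on opposite strands, 175 to 305 bases apart. Their windows can then cover the same bases, so a site may be counted for both subtypes. A match describes these letters in these windows only.

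The cells were labelled as chondrocytes, and the cartilage collagen gene Col2a1 ranged from 34418 to 61630 TPM over the 8 libraries. The Mir140 hairpin was listed at 0 in 7 of 8 libraries, the 4 wild-type ones included, and at 8.86 TPM in Mir140-null replicate 2, so poly(A) data gave no check of the genotype labels. Its host gene Wwp2 ranged from 332 to 459 TPM in wild-type libraries and from 261 to 394 TPM in the Mir140-null ones. Mir140-null replicates 1 and 2 stood apart from the rest. The sum of 7 fibroblast and perichondrium markers was 849 and 1023 TPM in them, against 3521 to 6406 TPM in wild-type against 5609 and 4232 TPM in Mir140-null replicates 3 and 4. Sums and calls of the histone genes are therefore given with and without that pair. The share of TPM from mitochondrially encoded genes was 4.06 to 6.99% in wild-type and 8.41 to 10.1% in Mir140-null libraries, with no overlap. Because these are bulk samples, fewer cells making histone mRNA and less histone mRNA per cell cannot be told apart.

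Histone gene transcripts were lower in the Mir140-null chondrocytes in every subtype. Over the 55 members, the summed level was 2887, 2155, 2545 and 2790.5 TPM in wild-type replicates 1 to 4, and 194, 498, 746 and 1026 TPM in Mir140-null replicates 1 to 4. Every Mir140-null library lay below every wild-type library. The means were 2595 ± 326 and 616 ± 354 TPM (SD, n = 4 each), a ratio of 4.21, and the ratio was 2.93 with Mir140-null replicates 3 and 4 as the only null libraries. No p-value is given for sums, since the members were chosen with results of these data known.

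**Figure D1:**
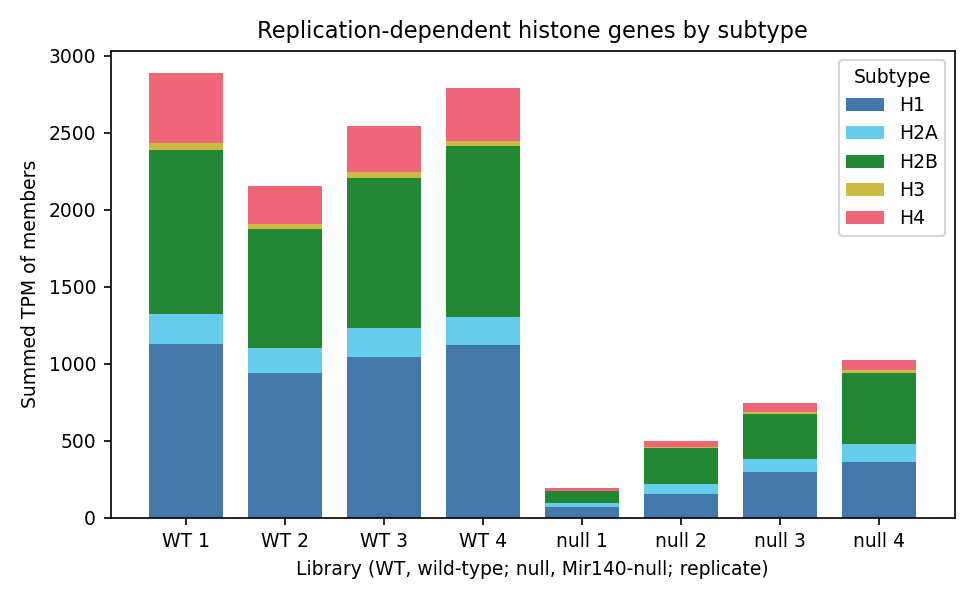
Summed TPM of the 55 replication-dependent histone genes in each library (vertical axis, TPM; horizontal axis, 4 wild-type and 4 Mir140-null libraries), with each bar divided by subtype. The wild-type bars stand between 2155 and 2887 TPM and the Mir140-null bars between 194 and 1026 TPM, and H1 and H2B make up most of each bar.

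Genes were tested one by one with limma on log2(TPM + 1) across all 17177 genes, and a gene was called at a Benjamini-Hochberg adjusted p under 0.05. On this scale the fold change of low genes is understated. Of the 55 members, 40 were lower in Mir140-null chondrocytes, 0 were higher and 15 were not called. In the whole fit 6.4% of genes were lower and 10.5% higher, and among protein-coding genes 5.3% were lower. At an unadjusted limma p under 0.05, 50 members were lower and 0 higher, against 14.9% of all genes lower and 19.0% higher. The median log2 fold change of the members was -1.68, against -0.01 over all genes tested. In 42 of the 55 members every Mir140-null library lay below every wild-type library, against 10.2% of all genes. The log2 fold change was negative in 54 members, the exception being Hist1h3h.

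The TPM rule could itself favour such a difference, since a gene could pass through its wild-type libraries alone. Hist1h2bh, Hist1h3c, Hist2h2ac and Hist2h2bb did so, with at least 0.5 TPM in all 4 wild-type libraries and in no Mir140-null library. They had to differ to be members, and all 4 are among the 40 called. Without them 36 of 51 members were lower, and 18 of the 50 tested without Mir140-null replicates 1 and 2, so their calls are counted below but carry no weight of their own. In 9 members, 7 of them called lower, all 4 wild-type libraries and at most 1 Mir140-null library reached 0.5 TPM. Divided by their mean over all 8 libraries, 18 of the 23 members with at least 5 TPM and 22 of the 32 members below 5 TPM were lower, with ratios of summed means of 4.21 and 4.33, or 2.92 and 3.14 with Mir140-null replicates 3 and 4 alone. Just inside the rule, with exactly 4 libraries at 0.5 TPM, were Hist1h2ak, Hist1h2bh, Hist1h3c, Hist1h3g, Hist2h2ac and Hist2h2bb. Hist2h2bb had 2.82, 2.36, 1.90 and 1.67 TPM in wild-type against 0, 0, 0.316 and 0.256 TPM in Mir140-null libraries. Just outside were Hist1h2af, with 2.38, 0.387, 2.02 and 0.592 TPM in wild-type libraries and 0 in each Mir140-null library, and Hist1h2an, at or above 0.5 TPM in 3 libraries. The other 10 that did not pass were Hist1h2aa, Hist1h2ai, Hist1h2ap, Hist1h2ba, Hist1h2bl, Hist1h3f, Hist2h2aa1, Hist2h2ab, Hist2h3b and Hist3h2ba, and 6 of the 12 were listed at 0 in at least 6 libraries.

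When Mir140-null replicates 1 and 2 were left out, 20 of the 54 members still tested were lower and 0 were higher, against 1.42% of all genes lower in that fit. They comprised 4 of the 6 H1, 1 of the 11 H2A, 5 of the 15 H2B, 2 of the 10 H3 and 8 of the 13 H4 members. Members that were lower in the fit of all 8 libraries but not called without the pair are named under their subtype. When 1 library was left out at a time, 23 of the 40 genes were called in each of the 8 fits. Another 15 were tested but not called in at least 1 of them, with adjusted p from 0.0514 to 0.101, and Hist1h3c and Hist2h2bb were called wherever the TPM rule still kept them. The 15 were Hist1h2ab, Hist1h2ao, Hist1h2bc, Hist1h2be, Hist1h2bf, Hist1h2bg, Hist1h2bh, Hist1h2bm, Hist1h2bp, Hist1h3a, Hist1h3b, Hist1h4a, Hist1h4b, Hist1h4m and Hist2h2ac. Leaving out wild-type replicate 3 gave the fewest calls, 23.

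**Figure D2:**
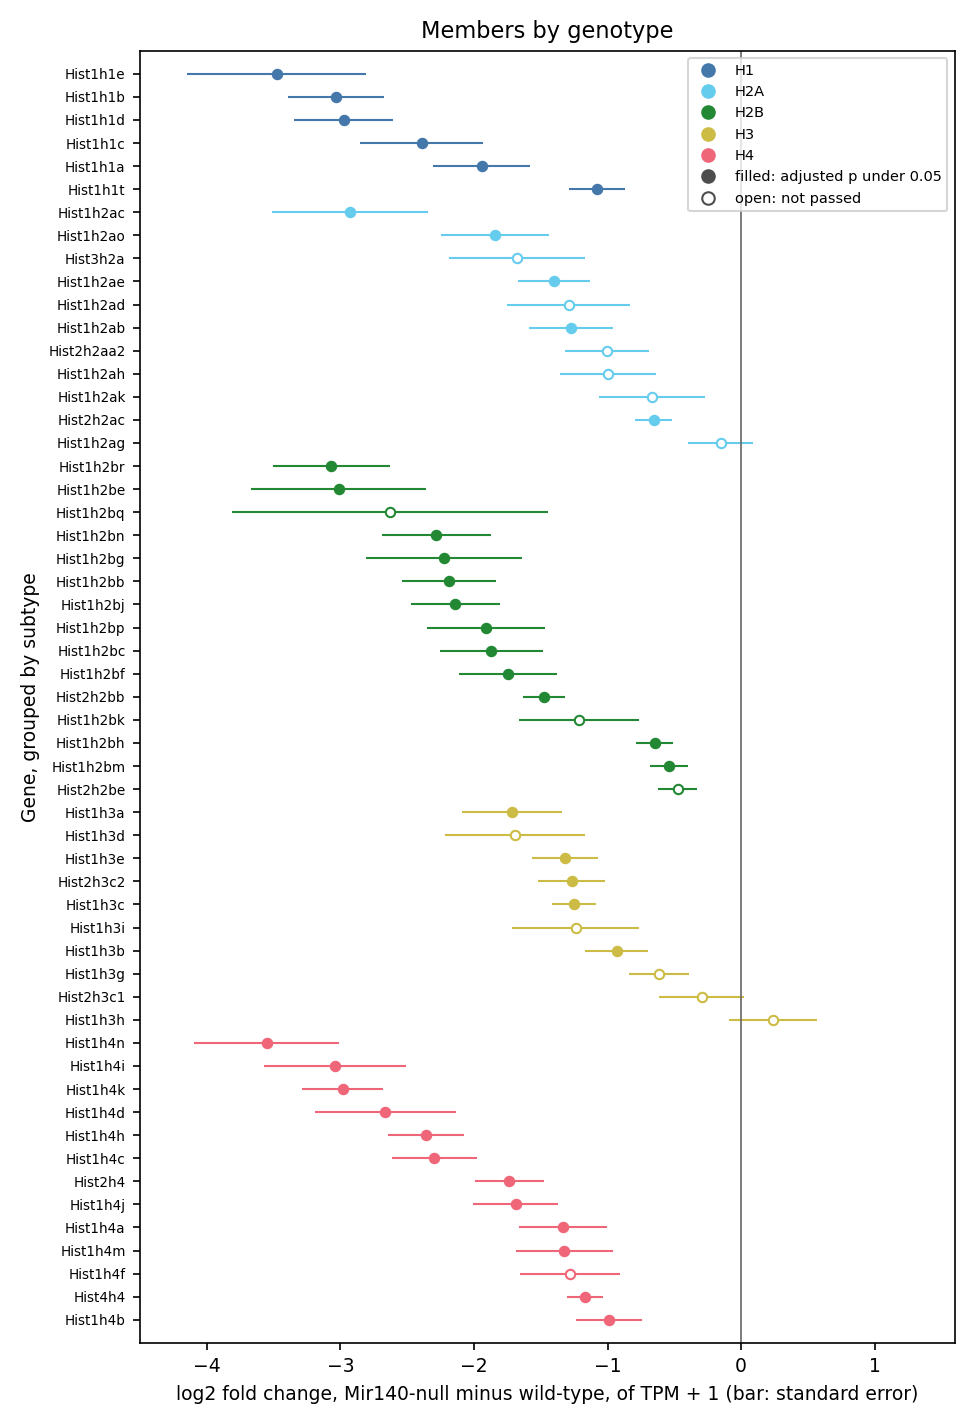
Log2 fold change of TPM + 1, Mir140-null minus wild-type (horizontal axis), for each of the 55 members (vertical axis, grouped and coloured by subtype), with bars for the standard error from limma. Filled points passed an adjusted p under 0.05 and open points did not, and 54 of the 55 points lie left of 0.

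H1 was the subtype in which each member was lower, 6 of 6, with a median log2 fold change of -2.68. Linker histones bind the DNA that enters and leaves the nucleosome and help to compact chromatin. The summed H1 level was 1129, 938, 1043 and 1121 TPM in wild-type against 67.4, 153, 300 and 366 TPM in Mir140-null libraries, a ratio of means of 4.78, or 3.18 with Mir140-null replicates 3 and 4 alone. Hist1h1c was the most abundant of the members. It had 953, 809, 890 and 965 TPM in wild-type against 64.4, 147, 269 and 334 TPM in Mir140-null libraries. The lowest wild-type value was thus above the highest Mir140-null value by a wide margin, although the 4 Mir140-null values themselves were far apart. Its log2 fold change was -2.39 ± 0.46 (SE, limma adjusted p = 0.0153), and -1.59 (adjusted p = 0.0109) without Mir140-null replicates 1 and 2.

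Hist1h1e, a second broadly expressed linker histone, had 118, 98.8, 116 and 117 TPM in wild-type libraries. In Mir140-null libraries it had 2.09, 4.42, 23.6 and 25.0 TPM. The wild-type libraries were close to each other, while the Mir140-null libraries formed a low pair, replicates 1 and 2, and a higher pair, replicates 3 and 4. The log2 fold change was -3.48 ± 0.67 (limma adjusted p = 0.0156), and -2.16 (adjusted p = 0.00338) without the low pair. Hist1h1e overlaps Hist1h2be on the same strand, so reads could be shared between the annotated transcripts.

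Hist1h1b and Hist1h1d were expressed at far lower levels than Hist1h1e and had the largest ratios of H1. Hist1h1b had 21.8, 15.1, 14.2 and 13.9 TPM in wild-type against 0.0935, 0.703, 2.39 and 1.92 TPM in Mir140-null libraries, a ratio of means of 12.7 (limma adjusted p = 0.00509). All of its 75-base words, the stretches as long as a read, occur in no other annotated transcript, so its level does not rest on reads shared with another copy. Hist1h1d had 22.5, 9.17, 13.1 and 15.1 TPM in wild-type against 0.132, 0.522, 1.90 and 1.84 TPM in Mir140-null libraries (ratio 13.6, limma adjusted p = 0.00571). Without Mir140-null replicates 1 and 2 both were still lower, at ratios of 7.54 for Hist1h1b and 8.01 for Hist1h1d. Hist1h1a (4.19 to 11.3 TPM in wild-type against 0.383 to 2.42 TPM in Mir140-null) and the testis linker histone gene Hist1h1t (1.14 to 2.67 against 0.0648 to 0.713 TPM) were lower in the fit of all 8 libraries and not called without that pair (adjusted p = 0.0738 and 0.0978).

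H4 showed the largest ratio of summed levels. Its 13 genes encode the same core histone, which pairs with H3 at the centre of the nucleosome. Their sum was 451, 250.3, 303 and 344 TPM in wild-type against 17.5, 38.0, 58.2 and 64.0 TPM in Mir140-null libraries, a ratio of means of 7.59, or 5.52 with Mir140-null replicates 3 and 4 alone. Of the 13 members 12 were lower, with a median log2 fold change of -1.74. H4 supplied 11.6 to 15.6% of all member TPM in wild-type and 6.24 to 9.02% in Mir140-null libraries, so these ranges did not overlap.

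Hist1h4k, the most abundant H4 gene, had the smallest p of all members. It had 151, 94.6, 111 and 121 TPM in wild-type against 6.89, 17.2, 17.0 and 18.8 TPM in Mir140-null libraries. Unlike the H1 genes, Mir140-null replicates 2, 3 and 4 lay close together and replicate 1 below them. Its log2 fold change was -2.98 ± 0.30 (limma adjusted p = 0.00393), and -2.65 (adjusted p = 0.00844) without replicates 1 and 2. Hist1h4n, whose stem-loop is shown above, had 103, 49.8, 60.7 and 79.4 TPM in wild-type against 2.60, 1.61, 9.78 and 12.6 TPM in Mir140-null libraries. With all 8 libraries it had the largest log2 fold change of the 55, -3.55 ± 0.54 (limma adjusted p = 0.00845). Without Mir140-null replicates 1 and 2 it was -2.56 (adjusted p = 0.0236), behind Hist1h4k and Hist1h2br (-2.59). Only 31.9% of the 75-base words of Hist1h4k and 16.6% of those of Hist1h4n are unique to the gene. The level of each of these genes is therefore less certain than the H4 sum.

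Hist1h4i had 105, 47.7, 61.2 and 71.7 TPM in wild-type against 1.84, 7.50, 10.5 and 17.2 TPM in Mir140-null libraries, and 77.6% of its words are unique (limma adjusted p = 0.012, and 0.0353 without Mir140-null replicates 1 and 2). Hist1h4d was steady in wild-type at 25.0, 22.4, 20.1 and 22.4 TPM, against 0.323, 1.68, 5.43 and 7.18 TPM in Mir140-null libraries, with 96.3% of words unique (adjusted p = 0.0166, and 0.0137 without that pair). Both kept every Mir140-null library well under the wild-type range. Hist1h4c, Hist1h4h, Hist2h4 and Hist4h4 were also lower, and these 4 and the preceding 4 H4 genes were the 8 called without Mir140-null replicates 1 and 2. Hist2h4 and Hist4h4 lie outside the large chromosome 13 cluster. Hist2h4 had 6.15, 6.25, 6.20 and 4.94 TPM in wild-type against 0.305, 0.755, 1.87 and 1.74 TPM in Mir140-null libraries, with every word unique. Hist4h4 had 2.42, 2.14, 1.74 and 2.0 TPM in wild-type against 0.148, 0.333, 0.631 and 0.385 TPM in Mir140-null libraries.

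The other H4 genes lower in the fit of all 8 libraries were Hist1h4a, Hist1h4b, Hist1h4j and Hist1h4m, none of which was called without Mir140-null replicates 1 and 2 (adjusted p from 0.0541 to 0.148). In Hist1h4m the genotypes overlapped, since Mir140-null replicate 2 had 4.55 TPM and wild-type replicate 2 had 3.67 TPM. Hist1h4f, at 0.565 to 3.11 TPM in wild-type and at 0 in 3 Mir140-null libraries, was the member of H4 not called (limma adjusted p = 0.0502).

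H2B and H2A form the dimers that flank the H3 and H4 core. The H2B sum was 1060.3, 773, 970.2 and 1110.0 TPM in wild-type against 78.1, 231, 291 and 466 TPM in Mir140-null libraries. Its mean was below that of H1 in wild-type (978 against 1058 TPM) and above it in Mir140-null libraries (266 against 221 TPM). The ratio of means was 3.67, or 2.59 with Mir140-null replicates 3 and 4 alone. Of 15 members 12 were lower, with a median log2 fold change of -1.91.

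Hist1h2bc accounted for most of the mean H2B level in both genotypes. It had 610, 504, 623 and 501 TPM in wild-type against 66.3, 139, 221 and 259 TPM in Mir140-null libraries, and so followed the same order among the Mir140-null libraries as Hist1h1c. Its log2 fold change was -1.87 ± 0.39 (limma adjusted p = 0.0188), and -1.22 (adjusted p = 0.0234) without Mir140-null replicates 1 and 2. It was not called without wild-type replicate 3 alone (0.0526) or Mir140-null replicate 2 alone (0.0523). Together Hist1h1c and Hist1h2bc made up 52.5 to 60.9% of all member TPM in wild-type and 57.3 to 67.3% in Mir140-null libraries. Hist1h2be had 84.2, 72.7, 78.9 and 85.3 TPM in wild-type against 2.34, 3.94, 23.9 and 23.8 TPM in Mir140-null libraries, nearly the same pattern over libraries as the overlapping Hist1h1e. Its log2 fold change was -3.01 ± 0.66 (limma adjusted p = 0.0216), and -1.71 (adjusted p = 0.00441) without Mir140-null replicates 1 and 2. It was not called without wild-type replicate 1, 3 or 4 or without Mir140-null replicate 2 (adjusted p from 0.0518 to 0.0571).

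Hist1h2bq was the exception among the abundant H2B genes. It had 124, 103, 100.2 and 392 TPM in wild-type against 1.47, 69.7, 13.1 and 143 TPM in Mir140-null libraries. Replicate 4 was the highest in both genotypes, and Mir140-null replicate 4 exceeded 3 of the 4 wild-type values. Its log2 fold change was -2.63 ± 1.18 (limma adjusted p = 0.16), and only 3.9% of its 75-base words are unique. The related Hist1h2br, with 12.4% unique words, was more even, at 103, 35.6, 70.1 and 51.4 TPM in wild-type against 2.71, 6.49, 6.36 and 13.1 TPM in Mir140-null libraries (limma adjusted p = 0.00754, and 0.0432 without Mir140-null replicates 1 and 2).

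Hist1h2bn was likewise lower with and without Mir140-null replicates 1 and 2. It had 12.2 to 24.2 TPM in wild-type against 0.684 to 4.90 TPM in Mir140-null libraries. Hist1h2bb, Hist1h2bf, Hist1h2bg, Hist1h2bh, Hist1h2bj, Hist1h2bm and Hist1h2bp were lower in the fit of all 8 libraries only, their adjusted p without that pair running from 0.0534 to 0.173. In Hist1h2bg, for example, wild-type libraries had 51.9, 13.9, 24.3 and 21.6 TPM and Mir140-null libraries 0.970, 3.76, 10.2 and 8.05 TPM, so that the groups did not overlap but their nearest values were close. Hist1h2bk (limma adjusted p = 0.0996) and Hist2h2be (0.0574) were not called.

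**Figure D3:**
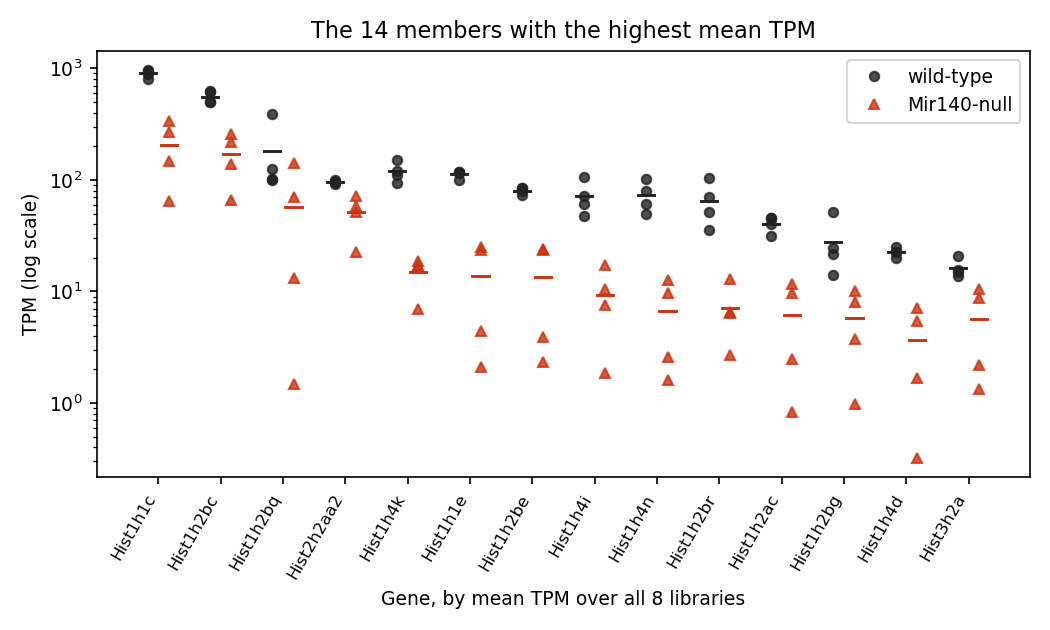
TPM on a log scale (vertical axis) in each library for the 14 members with the highest mean TPM (horizontal axis), with circles for the 4 wild-type and triangles for the 4 Mir140-null libraries and a short line at each mean. In 13 of these genes all triangles lie below all circles, the exception being Hist1h2bq.

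H2A was the subtype with the smallest ratio of summed levels. Its sum was 195, 167, 189 and 181 TPM in wild-type against 27.7, 67.1, 82.1 and 111 TPM in Mir140-null libraries, a ratio of means of 2.55, or 1.90 with Mir140-null replicates 3 and 4 alone. Of 11 members 5 were lower, with a median log2 fold change of -1.27. The H2A share of member TPM was 6.5 to 7.73% in wild-type and 10.8 to 14.3% in Mir140-null libraries, with no overlap, opposite in direction to the share of H4.

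Both the ratio and the share of H2A were set largely by Hist2h2aa2, whose own ratio of means was 1.87. This gene averaged 95.6 TPM of the mean H2A sum of 183 TPM in wild-type libraries. In Mir140-null libraries it averaged 51.2 TPM of 71.9 TPM. It had 96.2, 99.0, 91.3 and 95.9 TPM in wild-type against 22.4, 58.9, 51.7 and 71.9 TPM in Mir140-null libraries. The groups did not overlap, but the log2 fold change of -1.0 ± 0.32 did not pass (limma adjusted p = 0.0624). None of its 75-base words is unique, each being held by at least 1 other gene, the copy Hist2h2aa1 among those that share words with it, so the split between copies is uncertain. Hist1h2ac behaved like the H1 and H4 genes, at 45.5, 31.3, 45.8 and 40.1 TPM in wild-type against 0.826, 2.50, 9.59 and 11.7 TPM in Mir140-null libraries. Its log2 fold change was -2.93 ± 0.58 (limma adjusted p = 0.017), and it was the H2A gene called without Mir140-null replicates 1 and 2 (-1.83, adjusted p = 0.0179).

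Hist3h2a, the only member of its cluster, had 20.8, 13.7, 15.1 and 15.7 TPM in wild-type against 1.34, 2.19, 8.71 and 10.4 TPM in Mir140-null libraries. It did not pass (log2 fold change -1.68 ± 0.51, limma adjusted p = 0.0561), and its Mir140-null libraries again formed a low and a higher pair. Hist1h2ab, Hist1h2ae, Hist1h2ao and Hist2h2ac were lower in the fit of all 8 libraries and not without Mir140-null replicates 1 and 2. Hist1h2ad, Hist1h2ag, Hist1h2ah and Hist1h2ak were not called (adjusted p from 0.0882 to 0.691).

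H3 contributed least. Its sum was 50.8, 28.4, 40.0 and 35.0 TPM in wild-type against 3.59, 8.89, 15.8 and 19.7 TPM in Mir140-null libraries, a ratio of means of 3.22, or 2.17 with Mir140-null replicates 3 and 4 alone. Of 10 members 5 were lower, with a median log2 fold change of -1.25. Hist1h3d, the highest, had 9.75, 11.3, 11.0 and 14.4 TPM in wild-type against 0.422, 1.94, 4.72 and 8.44 TPM in Mir140-null libraries. Its groups did not overlap, but it did not pass (-1.69 ± 0.52, limma adjusted p = 0.0598). Hist1h3i, next in level, was spread over 2.64 to 15.8 TPM within wild-type and was not called either (adjusted p = 0.108).

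Hist1h3c had 1.17, 1.22, 2.02 and 1.95 TPM in wild-type and 0 in Mir140-null replicates 1, 2 and 3, with 0.333 TPM in replicate 4, and is one of the members that passed through the wild-type libraries alone. Hist1h3e had 2.36 to 3.64 TPM in wild-type against 0 to 1.06 TPM in Mir140-null libraries (limma adjusted p = 0.0145). It was also called without Mir140-null replicates 1 and 2 (0.0487), whereas Hist1h3a, Hist1h3b and Hist2h3c2 were lower in the fit of all 8 libraries only. Hist1h3g and Hist2h3c1 were not called. Hist1h3h, the member with a positive log2 fold change (0.24 ± 0.33, limma adjusted p = 0.644), had 0.711, 0.540, 0.615 and 0 TPM in wild-type against 0.981, 1.92, 0.424 and 0 TPM in Mir140-null libraries. Only 6.5% of its words are unique, and no order between the genotypes could be read from these values.

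By genomic cluster, most members lie in Hist1 on chromosome 13 (chr13:21715763-23934851, GRCm38), where the genes of all 5 subtypes are intermingled. Of its 46 members 35 were lower, with a ratio of summed means of 4.45, or 3.05 with Mir140-null replicates 3 and 4 alone. Its members fall into 2 blocks. In the block at the lower coordinates (chr13:21717659-22043676) 12 of 19 members were lower, with a ratio of 5.27 (3.83 on those 2 null libraries), and in the block at the higher coordinates (chr13:23531050-23764406) 23 of 27 members were lower, with a ratio of 4.23 (2.86). Hist1h1c, Hist1h2bc and Hist1h1e lie in the second block, which held 71.6% of mean member TPM in wild-type and 71.2% in Mir140-null libraries.

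The Hist2 cluster on chromosome 3 (chr3:96219865-96270132) had 7 members, of which 4 were lower. Its summed level was 113, 114, 108 and 109 TPM in wild-type against 23.9, 61.3, 58.7 and 79.2 TPM in Mir140-null libraries, a ratio of means of 1.99, or 1.61 with Mir140-null replicates 3 and 4 alone. Wild-type libraries were nearly equal, and the value was set mainly by Hist2h2aa2. Hist3 on chromosome 11 was represented by Hist3h2a, and Hist4 on chromosome 6 by Hist4h4.

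Many H2A and H2B genes are arranged head to head, with the starts of the pair facing away from each other over a shared upstream stretch. There were 12 such pairs among the annotated genes, 175 to 305 bases apart. In 8 of them the H2B gene had the higher TPM in all 4 wild-type libraries, and this held in 6 of the 8 pairs in which both genes were members. The pair Hist1h2ac and Hist1h2bc, 250 bases apart, averaged 40.7 and 560 TPM in wild-type, and both genes were lower in Mir140-null chondrocytes. The pair Hist1h2ae and Hist1h2bg, 175 bases apart, averaged 2.97 and 27.9 TPM. Hist1h2ad and Hist1h2bf, 184 bases apart, averaged 7.66 and 5.31 TPM, and in 1 wild-type library the H2B gene was the higher.

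The members were next divided by what their annotated transcripts hold at the 3′ end, a property the TPM rule did not use. Where the annotated transcript ran at least 100 bases past the stem-loop, 17 of 20 members were lower, with a ratio of summed means of 4.88, or 3.19 with Mir140-null replicates 3 and 4 as the only null libraries. Hist1h1c is of this kind, with 840 annotated bases after the stem-loop. Where it ended sooner, 15 of 20 members were lower, with a ratio of 3.36 (2.56 on those 2 null libraries), and where no stem-loop was found, 8 of 15 were lower, with a ratio of 3.76 (2.73). The poly(A) signal AATAAA was present in the last 50 annotated bases of 13 members, of which 9 were lower, and absent there from 42, of which 31 were lower. Lower members were thus found with and without an annotated extension or signal, and the ratios were not tested against each other.

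Many annotated histone transcripts are short and rich in G and C, and many are near-identical copies. Other members have longer annotated transcripts with less GC. Examples are Hist1h1c (1560 bases, 55.1% GC), Hist1h2bc (1156 bases, 45.9%) and Hist1h1e (1930 bases, 51.2%). The sets of short genes that follow do not match such members. Among other protein-coding genes whose longest transcript is at most 700 bases, 16 of 244 (6.56%) were lower, with a median log2 fold change of -0.09. With GC over 58% as well, 2 of 45 were lower, with a median of -0.03. Of the 34 members with at least 50% unique 75-base words 28 were lower, with a ratio of summed means of 4.33 (2.92 with Mir140-null replicates 3 and 4 alone), and of the 21 with less than 50%, 12 were lower, with a ratio of 3.88 (2.94). The part of transcript length, GC content and shared reads in the histone difference was not tested.

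Genes that act on histone mRNA were compared through lists chosen by function. Over all genes tested, 6.4% were lower and 10.5% higher, or 14.9% and 19.0% at an unadjusted limma p under 0.05. The counts in this and the following lists are to be read beside these shares. Of 25 genes of histone transcription and 3′-end processing, 0 were lower and 2 higher, with a median log2 fold change of 0.05 (1 lower and 7 higher at an unadjusted limma p under 0.05). Slbp had 45.2, 43.1, 49.3 and 43.7 TPM in wild-type against 29.8, 38.6, 47.2 and 41.0 TPM in Mir140-null libraries. The groups overlapped, and its log2 fold change was -0.22 ± 0.14 (limma adjusted p = 0.307). Npat, the coactivator of histone gene transcription at the entry into S phase, had 6.55 ± 0.886 TPM in wild-type against 7.63 ± 1.17 TPM in Mir140-null libraries (adjusted p = 0.41). The cleavage factor genes Cpsf2 (1.75 ± 0.135 and 3.5 ± 0.855 TPM, adjusted p = 0.0236) and Cpsf1 (4.61 ± 0.330 and 6.47 ± 0.279 TPM, adjusted p = 0.0377) were higher.

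Of 14 genes of histone mRNA decay, 0 were lower and 1 was higher, with a median of 0.21 (0 lower and 2 higher unadjusted). The higher gene was Upf1, the helicase recruited to histone mRNA when replication stops, with 7.81 ± 0.810 TPM in wild-type against 11.0 ± 1.08 TPM in Mir140-null libraries (limma adjusted p = 0.043). Of 13 histone chaperones and acetylation factors, 0 were lower and 2 were higher, with a median of -0.03 (1 lower and 4 higher unadjusted). These were Supt16, a subunit of the chaperone FACT (5.58 ± 0.239 and 10.9 ± 2.54 TPM, adjusted p = 0.0152), and Ipo4, which carries new histones into the nucleus (115 ± 9.93 and 157 ± 23.3 TPM, adjusted p = 0.0473).

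Replication-independent histone variants mostly have ordinary polyadenylated mRNAs. Of 11 such genes 2 were lower and 1 was higher, with a median log2 fold change of -0.57 (9 lower and 2 higher unadjusted). H3f3b, which encodes the H3 variant deposited outside S phase, had 1810, 1368, 1548 and 1547 TPM in wild-type against 373, 505, 1041 and 1077 TPM in Mir140-null libraries. Its groups did not overlap, and its log2 fold change was -1.20 ± 0.34 (limma adjusted p = 0.0462). The macroH2A gene H2afy2 was lower too (2.73 ± 0.405 and 1.39 ± 0.532 TPM, adjusted p = 0.0441), whereas the other macroH2A gene, H2afy, was higher (27.1 ± 2.54 and 56.8 ± 17.7 TPM, adjusted p = 0.0196). H3f3a, related to H3f3b, had 319, 269, 312 and 282 TPM in wild-type against 169, 202, 301 and 235 TPM in Mir140-null libraries. Its groups overlapped, and it was not called (-0.41 ± 0.17, limma adjusted p = 0.134). The linker variant H1f0 of non-dividing cells had 376, 347, 395 and 419 TPM in wild-type against 64.8, 100.04, 235 and 273 TPM in Mir140-null libraries, without overlap, and did not pass (-1.42 ± 0.43, adjusted p = 0.0557).

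Cell-cycle lists had medians nearer to 0 than the histone genes. Of 35 genes of S phase and DNA replication, 0 were lower and 2 were higher, with a median log2 fold change of -0.31 (8 lower and 4 higher at an unadjusted limma p under 0.05). Their summed level was 386, 296, 327 and 338 TPM in wild-type against 238, 261, 365 and 290 TPM in Mir140-null libraries. The groups overlapped, but through Mir140-null replicate 3 alone. The higher genes were Chek1, a checkpoint kinase (6.48 ± 1.30 and 15.6 ± 3.24 TPM, adjusted p = 0.0109), and Ccne2, a cyclin of S-phase entry (2.14 ± 0.501 and 4.31 ± 0.902 TPM, adjusted p = 0.0269). Pcna, the replication clamp, averaged 84.4 ± 7.62 and 78.9 ± 8.81 TPM and was not called. Of 15 genes of G2 and mitosis 1 was lower and 0 higher, with a median of -0.51 (5 lower and 0 higher unadjusted). It was the mitotic cyclin gene Ccnb1 (4.44 ± 1.36 and 2.08 ± 0.777 TPM, adjusted p = 0.0487). The G2 and mitosis genes summed to 120, 63.9, 84.9 and 71.8 TPM in wild-type libraries. In Mir140-null libraries they summed to 51.1, 49.8, 82.1 and 50.3 TPM, and again Mir140-null replicate 3 alone overlapped the wild-type range.

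**Figure D4:**
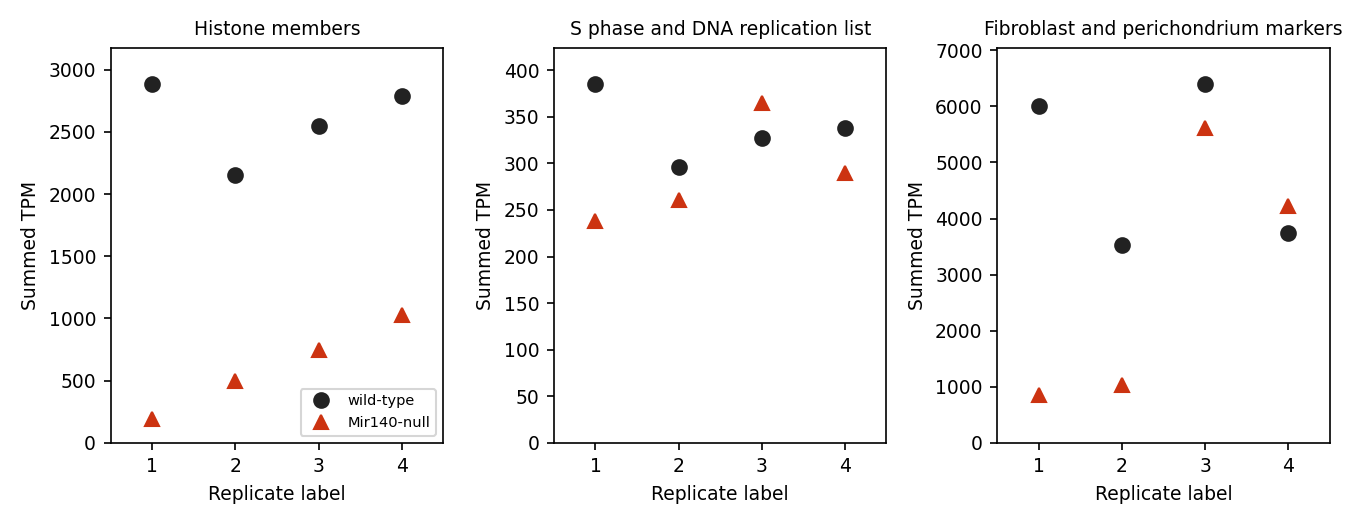
Summed TPM (vertical axes, each from 0) of the 55 histone members, of 35 S phase and DNA replication genes and of 7 fibroblast and perichondrium markers, by replicate label (horizontal axes), with circles for wild-type and triangles for Mir140-null libraries. Histone sums are separate between genotypes in every library, the S phase sums overlap, and the marker sums of Mir140-null replicates 1 and 2 lie below all the others.

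A list of other RNAs that lack a poly(A) tail was described in the same way. Of 10 tested genes of this kind 0 were lower and 1, an Rmrp identifier, was higher, with a median log2 fold change of -0.09 (0 lower and 1 higher unadjusted). This identifier was listed at 0 in 3 wild-type libraries and at 4.92 TPM in the other, and at 13.0, 6.69, 17.5 and 2.52 TPM in Mir140-null libraries. The summed level of the list was 544 to 1119 TPM in wild-type against 539 to 1159 TPM in Mir140-null libraries. The part of poly(A) selection in the histone difference was not tested.

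Of the 7 fibroblast and perichondrium genes, whose sums set Mir140-null replicates 1 and 2 apart, 1 was lower, Dcn, with a median log2 fold change of -1.20. The part of these cells in the histone difference was not tested. The 10 chondrocyte markers summed to 57389 to 72608 TPM in wild-type against 42062 to 57805 TPM in Mir140-null libraries, with Col9a1, Col11a1 and Hapln1 lower and Acan higher. Other cell types gave lower sums. Leukocyte markers summed to 22.6 to 41.5 and 18.4 to 32.1 TPM in the 2 genotypes, with Lyz2 the 1 lower gene of 4 tested. Erythroid markers summed to 646 to 1854 and 257 to 1725 TPM, skeletal muscle markers to 64.1 to 98.9 and 34.6 to 58.3 TPM, endothelial markers to 6.37 to 24.9 and 4.86 to 31.3 TPM, and osteoblast and osteoclast markers to 35.1 to 61.1 and 30.4 to 73.7 TPM. In these 4 lists 0 genes were lower and 0 higher in limma, and 2 muscle genes were lower at an unadjusted p under 0.05. The part of muscle content and of the mitochondrial share, whose ranges were also separate between the genotypes, in the histone difference was not tested. When histone TPM was expressed relative to the TPM of other nuclear protein-coding genes, the log2 ratio of summed means was -2.07 and 42 of 57 members that passed on that scale were lower.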

How the data were processed

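Polyadenylated RNA of rib chondrocytes from 4 wild-type and 4 Mir140-null samples, grouped by their genotype labels, was analysed. Per the labels and methods, the authors checked reads with FastQC 0.11.7 and quantified them with Salmon on the mm10 transcriptome, and the deposited files hold TPM per Ensembl gene, 1 file per library. The study then tested counts after an RUVSeq step, but TPM keeps no read depth, so each library's depth is unknown, no counting interval is given, and a log-scale model replaced the count model. TPM is a share: a rise elsewhere lowers it.

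Here 99.8% of identifiers matched GENCODE M21. The 17177 genes that reached 0.5 TPM in 4 or more of the 8 libraries were fitted on log2(TPM + 1) with limma 3.58.1 (lmFit, eBayes with trend, two-sided) in R 4.3.3, with Benjamini-Hochberg adjustment over all of them. Sums, sequences and plots used Python 3.11.15, pandas 2.3.3 and matplotlib 3.10.9. The fit and the sequence search were tested on simulated data. Salmon shares reads among near-identical copies, so 75-base words unique to a gene were counted. A missing match in a sequence window was read as nothing more.

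The members and the lists were chosen with earlier results of these data known. Genes named were every called member, the 2 highest of each subtype, the highest of each cluster, those next to the TPM limit, Slbp, Npat, and up to 5 called genes of each other list. Other genes named (members not called, Wwp2, Col2a1, Pcna, H1f0, H3f3a) were added after their values were seen.

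Alternatives were median-ratio scaling, a pseudocount of 0.1, dropping the filter or setting it on the mean, the replicate number as a block, 1 factor from residuals, sample weights and leaving out each library. Protein sequences were not used here.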

Additional observations from a re-analysis of the deposited data

Results flagged for a closer look

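In 122 groups of 4 libraries (the 55 members, the 5 subtype sums and the sum of all members, within each genotype), a highest or lowest value was marked when its gap to the nearest other value took up most of the group's range (Dixon's test at the 95% level). Chance would mark about 1 in 20 such groups if their values were normal and the groups independent. That rate is only a rough guide here, since the groups share libraries and some hold values of 0. In all, 10 values were marked. Among wild-type libraries, Hist1h1b was 21.76 TPM in replicate 1 (others 13.88 to 15.07), Hist1h1e was 98.83 TPM in replicate 2 (others 115.7 to 118.1), Hist1h2bh was 1.348 TPM in replicate 1 (others 0.5812 to 0.6939), Hist1h2bk was 7.094 TPM in replicate 4 (others 1.939 to 2.794), Hist1h2bq was 392.1 TPM in replicate 4 (others 100.2 to 124.5) and Hist2h4 was 4.94 TPM in replicate 4 (others 6.148 to 6.255). Among Mir140-null libraries, Hist1h3b was 0 TPM in replicate 1 (others 0.8728 to 0.9312), Hist1h3c was 0.3326 TPM in replicate 4 (0 in the others), Hist1h4f was 1.2 TPM in replicate 3 (0 in the others) and Hist1h4k was 6.892 TPM in replicate 1 (others 17.02 to 18.83).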

How the results depend on the processing

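Beside each count of members lower, the share of all genes lower in the same fit is given. Against 40 of 55 members (6.4% of all genes), the count was 37 (5.54%) with a pseudocount of 0.1, 29 of 67 (1.47%) with no filter, 37 of 56 (4.42%) with a filter on the mean, 41 (6.54%) with median-ratio scaling, 47 (11.7%) with 1 factor from residuals and 39 (6.35%) with sample weights. Leaving out 1 library gave 23 to 42, the lowest without wild-type replicate 3 (2.24%), the highest without Mir140-null replicate 4 (5.74%). Without both Mir140-null replicates 1 and 2 it was 20 (1.42%), and per TPM of other nuclear protein-coding genes 42 of 57 (5.62%), both chosen after seeing the data. The cause of the lower counts was not tested, although fewer libraries were fitted. Over these settings 15 of the 40 genes were called in all 17. With no filter 1 gene, Hist2h2ab (log2 fold change 0.33, limma adjusted p = 0.00475), was higher, against 0 otherwise.

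Signs changed in 3 members, none of them called. Hist1h2ag ran from -0.285 to 0.0465 (positive without Mir140-null replicate 2) and Hist1h3h from -0.0237 (without Mir140-null replicate 2) to 0.4909 over the fits without 1 library. Without both Mir140-null replicates 1 and 2, Hist1h2ag was 0.082 and Hist2h3c1 0.2325.

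The log2 ratio of summed TPM, -2.07, ran from -2.44 to -1.78 without 1 library and was -1.55 without the pair. With the replicate number as a block 31 members were lower (2.64% of all genes), 29 of them among the 40. Same-numbered libraries deviated together with correlations of 0.031, 0.016, 0.069 and -0.009, and 2 of 8 libraries correlated best with their own number, so the numbers were not shown to pair samples. TPM carries no depth, so the precision of low values is unknown.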
